A study of Homo sapiens with 4 samples.

Results

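A set of 10 genes of intestinal identity was followed in HCT116 cells, a human colorectal cancer line grown in culture, after RNA interference against TET1. The genes are the transcription factors CDX1, CDX2, HNF4A, GATA6, KLF4 and KLF5 and the differentiation markers KRT20, LGALS4, CDH17 and VIL1. Every probe set whose only annotated gene symbol was 1 of these 10 was taken, which gave 16 probe sets of 54613 for 9 of the 10 genes. No probe set in the annotation used here carried HNF4A as its single symbol, so HNF4A was not analysed here. Of 4 arrays, 2 hold RNA of cells transfected with TET1 siRNA and 2 hold RNA of cells transfected with control siRNA. All 4 samples are the same line, treated with the same lipid transfection reagent, and the series describes them as biological duplicates. The labels give neither the siRNA sequences nor the time of harvest, and with 1 TET1 siRNA group an effect of lost TET1 and an effect of the siRNA itself cannot be told apart. Each value is a signal in arbitrary units for a set of short probes, read from Affymetrix GeneChips hybridised with labelled RNA that was copied from poly(A) tails.

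The epithelium of the gut is kept in its identity by a small set of DNA-binding proteins. CDX1 and CDX2 are homeobox factors that switch on intestinal genes, HNF4A is a nuclear receptor of absorptive cells, and GATA6 is a zinc finger factor of endoderm that is active in crypt cells. KLF4 and KLF5 are Krüppel-like zinc finger factors with opposite habits in the gut: KLF4 is found in differentiated surface cells and goblet cells and restrains division, whereas KLF5 is found in dividing crypt cells. Cells that leave the crypt gain the intermediate filament protein keratin 20 (KRT20), the lectin galectin-4 (LGALS4), the adhesion protein LI-cadherin (CDH17) and villin (VIL1), which bundles actin in the microvilli of the brush border. TET1 oxidises methylated cytosine in DNA, mostly at CpG dinucleotides, a first step toward removing the methyl group.

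Because TET1 acts on CpG, the CpG content of the members' promoters is shown beside their signals. RefSeq windows of 300 bases on GRCh38.p14, from 250 bases before to 50 after an annotated transcript start, were matched for 7 of the 10 genes. The windows of KLF4 and GATA6, whose transcripts were detected, and of KRT20, whose signals were close to background, are printed below on the gene's strand, with every CpG in capitals.
KLF4 (chr9:107489720-107490019, minus strand): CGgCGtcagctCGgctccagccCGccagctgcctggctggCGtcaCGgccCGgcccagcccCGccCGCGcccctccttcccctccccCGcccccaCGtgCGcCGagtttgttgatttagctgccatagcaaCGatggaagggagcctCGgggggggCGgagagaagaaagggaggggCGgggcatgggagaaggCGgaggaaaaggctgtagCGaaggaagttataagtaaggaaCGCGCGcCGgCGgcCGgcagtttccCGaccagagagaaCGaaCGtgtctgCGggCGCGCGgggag
GATA6 (chr18:22169339-22169638, plus strand): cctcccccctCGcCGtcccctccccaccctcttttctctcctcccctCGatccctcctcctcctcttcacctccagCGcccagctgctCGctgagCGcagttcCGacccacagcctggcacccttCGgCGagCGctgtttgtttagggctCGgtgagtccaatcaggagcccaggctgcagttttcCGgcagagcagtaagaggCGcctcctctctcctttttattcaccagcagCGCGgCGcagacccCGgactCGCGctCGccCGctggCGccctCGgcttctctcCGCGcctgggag
KRT20 (chr17:40885193-40885492, minus strand): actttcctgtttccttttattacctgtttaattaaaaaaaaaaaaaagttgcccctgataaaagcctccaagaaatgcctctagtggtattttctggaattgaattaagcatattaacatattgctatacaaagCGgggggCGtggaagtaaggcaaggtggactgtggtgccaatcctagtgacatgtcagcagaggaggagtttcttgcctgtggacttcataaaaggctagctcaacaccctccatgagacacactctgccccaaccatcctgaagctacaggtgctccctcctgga
The KLF4 window holds 33 CpG, a number reached by 17.2% of all 35116 windows, and the GATA6 window holds 25, reached by 32.0%. The KRT20 window holds 2, and 89.0% of windows hold at least as many. KLF5 has windows at a pair of starts, with 4 and 37 CpG. The CDX2 window holds 16 CpG and the LGALS4 window 7, where the median window holds 14. The windows of HNF4A, which was not analysed on the arrays, hold 11 and 9 CpG. Of the 3 genes detected by both measures given below, each has a window with 25 or more CpG, but KLF5 only in 1 of its 2 windows. This is a description of reference sequence over a few genes, and methylation was not measured on these arrays.

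By the stricter of 2 measures of background, 3 of the 9 genes with a probe set were detected in HCT116 on all arrays: GATA6, KLF4 and KLF5. A probe set was tested when its mean log2 value lay above the median of all 54613 probe sets, a signal of 13.1. Because it is a median, 27306 of them pass by construction. By this measure 7 of the 16 probe sets, of 5 genes, were above background: those of KLF4 and KLF5, 1 of 2 for GATA6, the single KRT20 probe set and 1 of 4 for VIL1. A stricter measure used 107 probe sets of olfactory receptor genes, which are mostly silent outside the nose, and took their 95th percentile on each array (21.35 to 23.18). Of these 107 probe sets 11.2% lay above the median filter. On all 4 arrays 5 probe sets were above it, 1 of GATA6 and 2 each of KLF4 and KLF5. The 9 probe sets below the median filter gave signals of 0.7 to 17.7. In contrast, all 8 general epithelial markers examined (KRT8, KRT18, KRT19, EPCAM, CDH1, CLDN3, CLDN4 and CLDN7) were above the filter. Their summed signal was 20948 to 21098 on the TET1 siRNA arrays and 18981 to 19365 on the control siRNA arrays, and among them KRT8 was higher (log2 difference 0.32, limma adjusted p = 0.00887) and CDH1, the E-cadherin gene, was lower (-1.16, adjusted p = 2.78e-05).

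**Figure D1:**
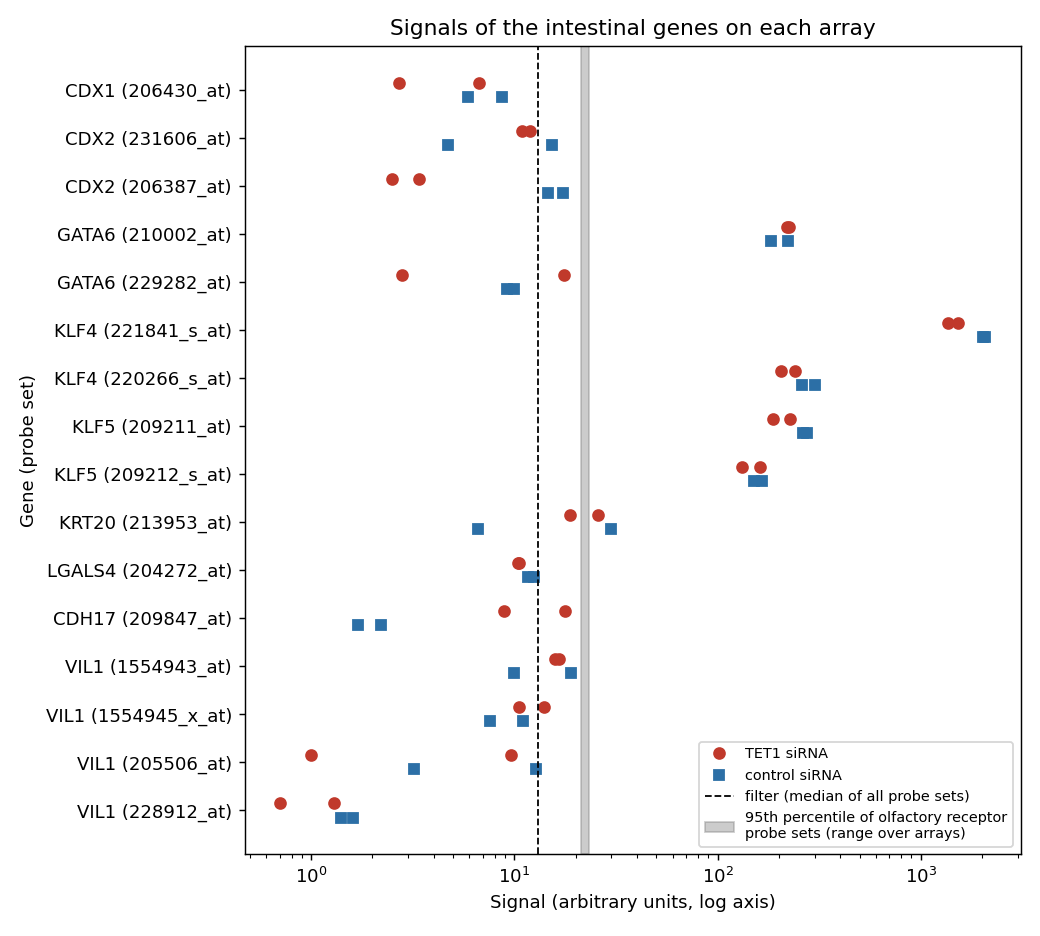
Signal of each of the 16 probe sets (rows) on the 2 TET1 siRNA arrays (red circles) and the 2 control siRNA arrays (blue squares), in arbitrary units on a log axis. The dashed line marks the median filter (13.1) and the grey band the 95th percentile of olfactory receptor probe sets (21.35 to 23.18); the GATA6 probe set 210002_at and both probe sets of KLF4 and of KLF5 lie to the right of the band on every array.

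KLF4 was the single member that passed in the fit over probe sets, and it was lower after TET1 siRNA. Its probe set 221841_s_at read 1528 and 1358.8 with TET1 siRNA, against 2077.3 and 2034.9 with control siRNA. Both TET1 siRNA arrays lay below both control siRNA arrays. The means were 1443 ± 120 with TET1 siRNA and 2056 ± 30.0 with control siRNA (SD, n = 2 each), so that 70.2% of the control signal remained. On the log2(signal + 16) scale KLF4 fell by 0.51 (SE 0.075, 95% interval -0.67 to -0.34, limma adjusted p = 0.00119). Across all 27306 probe sets tested, 7.56% had a lower difference. Without a trend of variance on signal the same difference did not pass (limma adjusted p = 0.0819), and without sharing of variance between probe sets it was at adjusted p = 0.223 by lmFit alone. In bulk RNA, fewer cells with the transcript and less transcript per cell cannot be told apart.

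The second KLF4 probe set, 220266_s_at, pointed the same way by less. It read 241.1 and 206 with TET1 siRNA and 302.6 and 259.5 with control siRNA. The groups did not overlap, but the lower control siRNA array was only slightly above the higher TET1 siRNA array. Its log2 difference was -0.31 (SE 0.12, 95% interval -0.57 to -0.05) and it did not pass after adjustment (limma adjusted p = 0.106). With the mean of both probe sets, tested at the level of genes, KLF4 was at -0.41 (limma adjusted p = 0.0199).

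KLF5, the crypt cell factor of the same family, was lower by 1 of its 2 probe sets at the edge of the threshold. Probe set 209211_at read 227.7 and 187.2 with TET1 siRNA and 263.3 and 276.4 with control siRNA. All values with TET1 siRNA were below those with control siRNA, and the array of TET1 siRNA replicate 2 was the lowest. The log2 difference was -0.36 (SE 0.12, 95% interval -0.62 to -0.10, limma adjusted p = 0.0613). When each gene was represented by its brightest probe set and p-values were adjusted over 12389 genes, the same values passed (adjusted p = 0.0466). Probe set 209212_s_at read 161.2 and 131.7 with TET1 siRNA and 151.2 and 164.6 with control siRNA, and here the groups overlapped. Its log2 difference was -0.10 (95% interval -0.39 to 0.19, limma adjusted p = 0.67), and with the mean of both probe sets KLF5 did not pass (-0.23, adjusted p = 0.203). Leaving out 1 array at a time gave 209211_at an adjusted p of 0.0372 without TET1 siRNA replicate 1 and of 0.122 to 0.334 without any other array.

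GATA6 showed no difference beyond the spread between arrays. Its probe set 210002_at read 219.6 and 225.2 with TET1 siRNA and 183.7 and 222.1 with control siRNA. The groups overlapped, and most of the spread came from the low value of control siRNA replicate 1. The log2 difference was 0.13 (SE 0.12, limma adjusted p = 0.53), and its 95% interval of -0.13 to 0.39 leaves room for a small change either way. The other GATA6 probe set, 229282_at, was below the filter and read 17.6 and 2.8 with TET1 siRNA and 9.2 and 10 with control siRNA. GATA6-AS1, a non-coding RNA transcribed from the opposite strand beside GATA6, has a probe set of its own. It read 27.1 and 35 with TET1 siRNA and 23.2 and 31.6 with control siRNA, also with overlapping groups (log2 difference 0.12, limma adjusted p = 0.771).

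**Figure D2:**
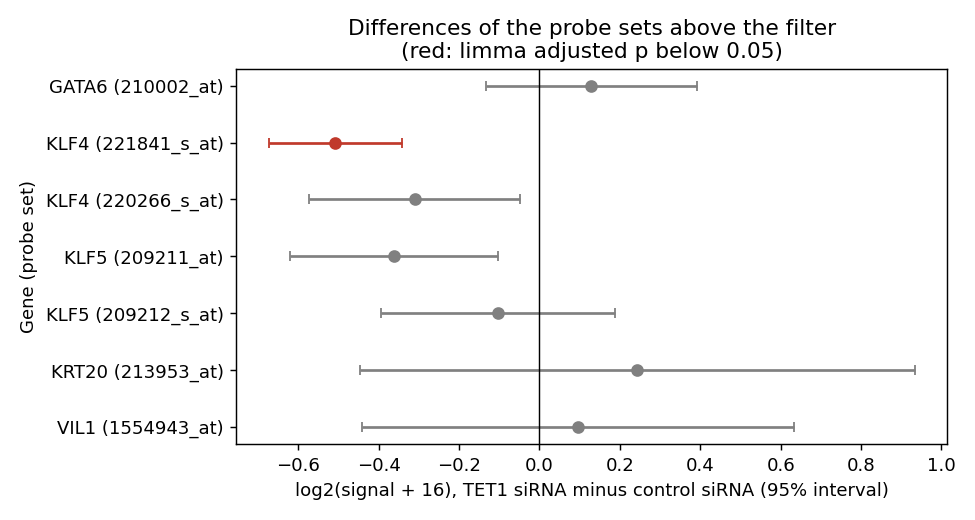
Log2 difference, TET1 siRNA minus control siRNA, of the 7 probe sets above the filter (points) with limma's 95% interval (bars), on the log2(signal + 16) scale. The interval of KLF4 221841_s_at runs from -0.67 to -0.34; those of KRT20 and VIL1 are the widest and span 0.

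The 4 differentiation markers gave no difference that could be measured. KRT20 read 18.8 and 25.7 with TET1 siRNA and 29.8 and 6.6 with control siRNA. The control siRNA arrays enclose both TET1 siRNA arrays, and 2 of the 4 values are above the olfactory receptor limit. Its log2 difference was 0.24 (SE 0.31, 95% interval -0.45 to 0.93, limma adjusted p = 0.67), and its sign turned to -0.27 (adjusted p = 0.609) without control siRNA replicate 2. The VIL1 probe set 1554943_at read 16.5 and 15.9 with TET1 siRNA and 10 and 18.9 with control siRNA, all below the olfactory receptor limit (log2 difference 0.10, 95% interval -0.44 to 0.63, limma adjusted p = 0.844). The other VIL1 probe sets lay below the filter, at 0.7 to 13.9 over all arrays.

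LGALS4 and CDH17 were below the filter and entered no test. The galectin-4 probe set read 10.5 and 10.4 with TET1 siRNA and 12.5 and 11.7 with control siRNA. These groups do not overlap, but the values differ by little and all are near the array medians (13.9 to 15.5). The LI-cadherin probe set read 8.9 and 17.7 with TET1 siRNA and 2.2 and 1.7 with control siRNA. All 4 values are below the olfactory receptor limit, so no fold is given. When every probe set was tested with no filter, CDH17 was at a log2 difference of 0.69 and did not pass (limma adjusted p = 0.161).

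The CDX factors, which direct intestinal fate, were at background as well. CDX1 read 2.7 and 6.7 with TET1 siRNA and 5.9 and 8.7 with control siRNA, with overlapping groups. CDX2 has 2 probe sets and they disagree. Probe set 206387_at read 2.5 and 3.4 with TET1 siRNA and 17.4 and 14.7 with control siRNA, without overlap. Probe set 231606_at read 10.9 and 11.9 with TET1 siRNA and 4.7 and 15.3 with control siRNA, and the control siRNA values enclose the others. No CDX2 value on any array was above the olfactory receptor limit. With no filter, 206387_at was at a log2 difference of -0.76 and did not pass (limma adjusted p = 0.115).

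Counted together, 1 of the 7 tested probe sets was lower, none was higher and 6 did not pass. At unadjusted p below 0.05 there were 3, all lower: both KLF4 probe sets and KLF5 209211_at. Among all probe sets tested, 16.1% were called in either direction, 8.31% as lower and 7.76% as higher, so the share among the members is near this background. In the same 3 of 7 probe sets the groups did not overlap, and all 3 were lower; the same held for 56.1% of all probe sets tested, and for 28.9% with TET1 siRNA lower. In TET1 itself, the check of the labels, probe set 228906_at read 14.6 and 15 with TET1 siRNA against 58.1 and 59.6 with control siRNA (log2 difference -1.28, limma adjusted p = 0.00127). The other TET1 probe set, 214862_x_at, read 6 and 8.9 with TET1 siRNA and 18.2 and 35.5 with control siRNA and did not pass (log2 difference -0.84, limma adjusted p = 0.0509). It was above the filter through the control siRNA arrays alone. With TET1 siRNA both TET1 probe sets read below the olfactory receptor limit, so the size of the TET1 fall is not known. The ratio of 3' to 5' signal, which reflects how intact the RNA was, was at 1.28 and 1.26 for beta-actin (ACTB) with TET1 siRNA and 1.21 and 1.19 with control siRNA. For GAPDH it was at 0.884 and 0.858 with TET1 siRNA and 0.858 and 0.846 with control siRNA, with overlapping groups. The part of this ratio in the KLF4 result was not tested.

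Most other Krüppel-like factors did not pass the test. Of 15 genes, 11 were above the filter, 1 was lower, none was higher (1 at unadjusted p below 0.05) and 10 did not pass (9.09% called, against 21.9% of all genes tested). Their median log2 difference was -0.21, against 0.0098 for all genes. The member that was lower was KLF13, which binds GC-rich promoters, which averaged 364 ± 40.7 with TET1 siRNA and 460 ± 30.1 with control siRNA (SD, n = 2 each). It fell by 0.33 (limma adjusted p = 0.04), the call was lost without any 1 array other than TET1 siRNA replicate 1 (adjusted p 0.0608 to 0.261), and with the mean of its probe sets it was at -0.06 (adjusted p = 0.81). KLF2 had a similar difference to KLF4 (-0.51) but a wide spread (SE 0.23, limma adjusted p = 0.136), with 252.6 and 125.7 with TET1 siRNA and 285.3 and 240.7 with control siRNA. KLF12 was at 0.43 (limma adjusted p = 0.0519) and KLF6 at 0.10 (adjusted p = 0.332). With the replicate number as a block 2 of the 11 were lower and 1 was higher. KLF2, KLF6 and KLF12 were named after their values were seen.

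**Figure D3:**
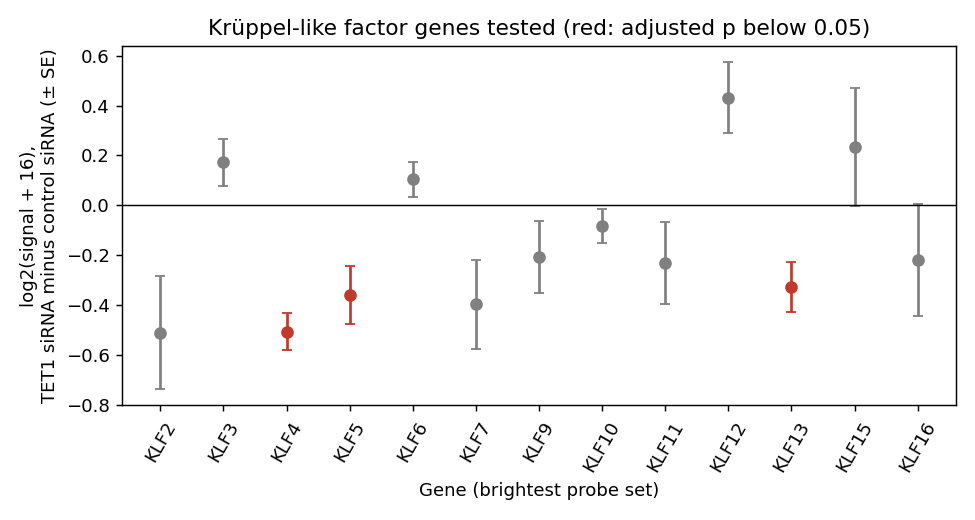
Log2 difference, TET1 siRNA minus control siRNA, of the 13 Krüppel-like factor genes above the filter, each by its brightest probe set, on the log2(signal + 16) scale with limma's SE as bars. KLF4, KLF5 and KLF13 passed when p-values were adjusted over 12389 genes (red); KLF2 lies as low as KLF4 with a wider SE.

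Further transcription factors of the gut epithelium were lower where they passed. Of 17 tested genes 5 were lower, none was higher (0 at unadjusted p below 0.05) and 12 did not pass (29.4% called, against 21.9% of all genes tested), with a median log2 difference of -0.35. TCF7L2, the DNA-binding partner of beta-catenin in crypts, read 3518.7 and 3500.6 with TET1 siRNA and 4855.3 and 4753.5 with control siRNA. It fell by 0.45 (SE 0.058, limma adjusted p = 2.99e-04), and 6 of its 7 probe sets were lower. The nuclear receptor PPARG fell by 0.50 (adjusted p = 0.0029), to 319 ± 11.5 with TET1 siRNA against 459 ± 30.3 with control siRNA (SD, n = 2 each). The corepressor CBFA2T3 fell by 0.87 (adjusted p = 0.00432), with 34.3 and 36.1 under TET1 siRNA and 71.4 and 84.6 under control siRNA. SMAD4, the common mediator of TGF-beta and BMP signals, fell by 0.41 (adjusted p = 0.0121) in 1 of the 3 probe sets tested for it. With the mean of all 5 of its probe sets, some of them below the filter, it did not pass (adjusted p = 0.273). SMAD4 also did not pass without control siRNA replicate 1 (adjusted p = 0.087) or TET1 siRNA replicate 1 (0.0704), and 3 genes of the list were lower without control siRNA replicate 1. Without _x_at and _s_at probe sets 1 gene of the list was lower, TCF7L2. CBFA2T3 and PPARG have only an _s_at probe set and were not tested under that setting. SMAD4 was tested there by another probe set and did not pass (adjusted p = 0.0555). Without a variance trend 1 was lower, CBFA2T3, with TCF7L2 at adjusted p = 0.0538 and PPARG at 0.0546. ELF3, an epithelial ETS factor named after its value was seen, fell by 0.41 (adjusted p = 0.0194; 2 of its 3 probe sets passed), and the call was lost without control siRNA replicate 1, control siRNA replicate 2 or TET1 siRNA replicate 2 (adjusted p 0.0689 to 0.148).

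Among genes that VIL1 works beside in the brush border, 1 rose and 1 fell. There were 15 tested (13.3% called, against 21.9% of all genes tested), with a median log2 difference of 0.12. EZR, which encodes ezrin, the linker between actin and the microvillus membrane, averaged 4321 ± 111 with TET1 siRNA and 3078 ± 64.5 with control siRNA (SD, n = 2 each). It rose by 0.49 (SE 0.061, limma adjusted p = 2.28e-04), and 4 of its 5 probe sets were higher. Without _x_at and _s_at probe sets EZR was at 0.31 and did not pass (adjusted p = 0.142), which left no gene of the list higher. MYO5B, a motor that carries membrane to the apical surface, fell by 0.43 (adjusted p = 0.0124) with both of its probe sets above the filter lower, though not without control siRNA replicate 2 or TET1 siRNA replicate 2 (adjusted p 0.0875 and 0.104).

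Markers of differentiated intestinal cells were mostly dim. Over the whole array 12389 of 19775 genes were above the filter. Of 31 genes of absorptive cells only 12 were above the filter, of which 2 were higher and 1 lower. That is 25% called, against 21.9% of all genes tested, with a median log2 difference of 0.14. KRT8, KRT18 and KRT19, which are general epithelial markers given above, are among the 12 genes tested. The keratin gene KRT8 rose by 0.32 (limma adjusted p = 0.00887) and the sulfate transporter gene SLC26A2 by 0.47 (adjusted p = 0.016); SLC26A2 did not pass without control siRNA replicate 1 (adjusted p = 0.0904), and neither passed without TET1 siRNA replicate 2 (0.115 for KRT8 and 0.132 for SLC26A2). Of the 3 SLC26A2 probe sets above the filter 1 was higher. PIGR, the receptor that carries IgA across the epithelium, read 4.1 and 5.9 with TET1 siRNA and 30.2 and 24.1 with control siRNA. It counts as lower (adjusted p = 0.0127), but the TET1 siRNA values are at background, so PIGR was above the filter through the control siRNA arrays alone and the size of its change is not known (log2 difference -2.24 to -0.40 with pseudocounts of 1 to 64). It did not pass without control siRNA replicate 1 (adjusted p = 0.0944) or TET1 siRNA replicate 1 (0.0574). Of 18 goblet cell genes 5 were tested and none passed in limma (0 at unadjusted p below 0.05): MUC4 was at 0.47 (adjusted p = 0.154) and MUC1 at -0.47 (adjusted p = 0.18). Of 13 enteroendocrine genes on the array 1 was above the filter, the secretogranin gene SCG2, which fell by 0.96 (adjusted p = 1.40e-04), to 131 ± 5.87 with TET1 siRNA against 269 ± 7.14 with control siRNA (SD, n = 2 each).

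Of 13 tested genes of intestinal stem and progenitor cells 3 were lower, none was higher (0 at unadjusted p below 0.05) and 10 did not pass. That is 23.1% called, against 21.9% of all genes tested, with a median log2 difference of -0.02. CDCA7, a target of MYC, fell by 0.66 (limma adjusted p = 0.00107) in 1 of its 2 probe sets. RNF43, a ubiquitin ligase that removes Wnt receptors, fell by 0.59 (adjusted p = 0.00407), with 143.1 and 141.4 under TET1 siRNA and 208.4 and 238.1 under control siRNA. The hyaluronan receptor gene CD44 fell by 0.42 (adjusted p = 0.00142) by its brightest probe set, but only 2 of its 11 probe sets above the filter were lower. With the mean of all 13 CD44 probe sets, some of them below the filter, CD44 was at -0.03 (adjusted p = 0.873). The progenitor factor gene SOX9, named after its value was seen, was at -0.02 (adjusted p = 0.886).

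Among the tested genes reported elsewhere as targets of the CDX factors and of HNF4A none passed as lower (0 at unadjusted p below 0.05). Of 19 CDX targets on the array 10 were tested, of which 2 were higher and none lower (20% called, median 0.15). Of 15 HNF4A targets on the array 4 were tested, of which 2 were higher and none lower (50% called, median 0.18). Over all genes tested 21.9% were called. The remaining targets were below the filter and entered no test, so the lists as a whole cannot be judged. CDKN1A, the cell cycle inhibitor p21, is in both lists and is also activated by p53 and by KLF4. It read 1623.9 and 1703.3 with TET1 siRNA and 968.9 and 946.4 with control siRNA, and rose by 0.79 (SE 0.070, limma adjusted p = 2.86e-05). The desmosomal cadherin gene DSC2 rose by 0.43 (adjusted p = 0.00533, or 0.0572 with the mean of its 4 probe sets), and the fatty acid oxidation gene ACADM by 0.40 (adjusted p = 0.0124), which did not pass without control siRNA replicate 2 or TET1 siRNA replicate 2 (adjusted p 0.0674 and 0.128).

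Relatives of LGALS4 and CDH17 were above the filter in 7 of 12 cases, against 12389 of all 19775 genes. Of these 7 tested galectins, galectin ligands and atypical cadherins 2 were higher and none lower (28.6% called, against 21.9% of all genes tested, median 0.12). LGALS8, which encodes galectin-8, read 667.7 and 655.7 with TET1 siRNA and 354.6 and 350.3 with control siRNA. It rose by 0.88 (SE 0.083, limma adjusted p = 4.36e-05), and 3 of its 6 probe sets were higher. The galectin-3 binding protein gene LGALS3BP rose by 0.59 (adjusted p = 1.62e-04), whereas LGALS3, named after its value was seen, was at -0.01 (adjusted p = 0.962).

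**Figure D4:**
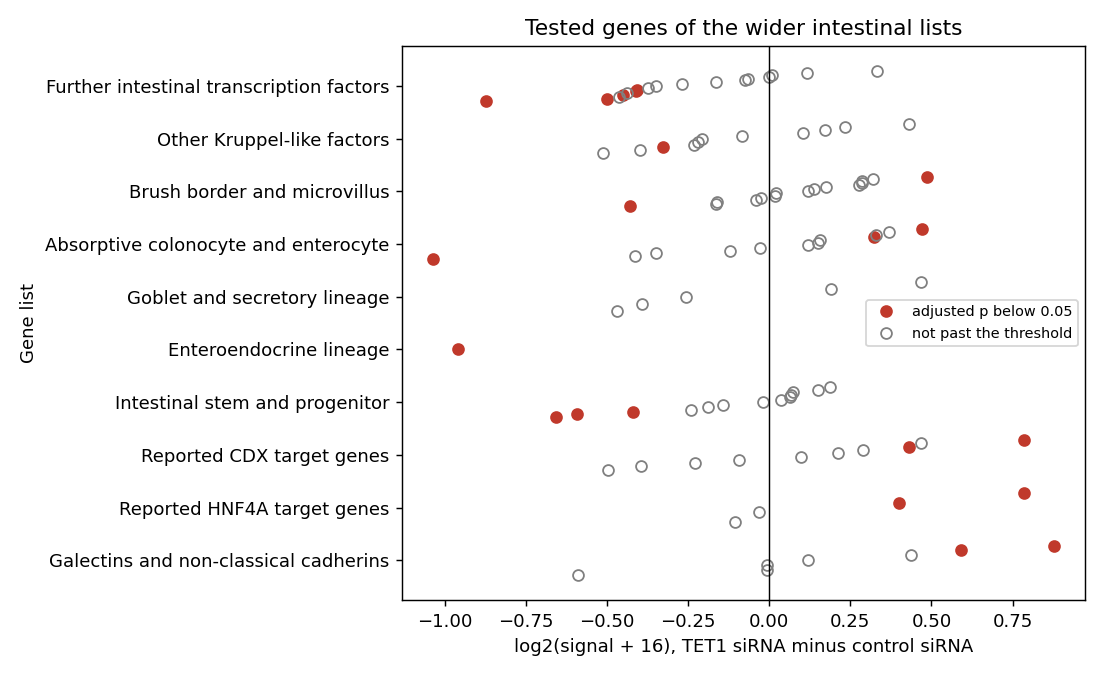
Log2 difference, TET1 siRNA minus control siRNA, of each tested gene (points) in the 10 wider lists (rows), on the log2(signal + 16) scale, red where limma's adjusted p was below 0.05. All 5 red points among the further intestinal transcription factors lie left of 0, and those of the CDX targets, HNF4A targets and galectins lie right of it.

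Over the 10 lists 93 different genes were tested, of which 8 were higher and 12 lower. That is 21.5%, against 21.9% of all 12389 genes tested (11.2% higher and 10.6% lower), so the lists as a whole were called about as often as any gene. Markers of gut-unrelated cell types were mostly dim. The median signals of the gastric, hepatocyte, squamous, fibroblast, endothelial, lymphocyte and myeloid lists were 4.5 to 14.3 with TET1 siRNA and 6.65 to 12.6 with control siRNA. Of these markers COL1A1 (0.47, limma adjusted p = 0.0242) and ESAM (1.45, adjusted p = 0.00458) rose. COL1A1 was not dim, at 337.4 and 451.9 with TET1 siRNA and 296.2 and 258.9 with control siRNA. ESAM read 67.5 and 60.6 with TET1 siRNA and 4.7 and 25.6 with control siRNA. These control siRNA values are near background, so the size of the ESAM rise is not known. The part of COL1A1 and ESAM in the results above was not tested.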

How the data were processed

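Expression was measured in 4 samples of HCT116 cells, grouped by the siRNA named in their titles, on 1 Affymetrix array each. The authors deposited 1 linear intensity for each probe set. All arrays share 1 trimmed mean (100.01 without 2% at either end), so the authors scaled them array by array; no label or header names the software or the background step. Such scaling cannot show a change in total mRNA, and dim values depend on the unstated background step. The number of arrays limits the precision.

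Values were used as log2(signal + 16), which understates changes of dim genes. Leaving out 62 control probe sets, those with a mean log2 value above the median of probe sets (4.86) were tested with limma 3.58.1 in R 4.3.3 (eBayes with a variance trend, two-sided, Benjamini-Hochberg over 27306 probe sets, threshold 0.05). Residual degrees of freedom were 2, with 8.73 more from the prior. With 2 arrays a group, the smallest p of an exact permutation test is 0.33. For the wider lists each gene was its probe set of highest mean signal, adjusted over 12389 genes. Symbols came from the platform annotation, with current names from RefSeq. Of 188 list genes 176 had a probe set. The fit was tested on simulated data.

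Named genes were the 10 members, TET1 and up to 4 genes of each list with the largest change past the threshold, or, where none passed, up to 2 with the lowest p. Members, lists and rules were chosen with earlier results of these data known. Figures were drawn with matplotlib 3.10.9.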

Additional observations from a re-analysis of the deposited data

How the results depend on the processing

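One member probe set was lower (KLF4 221841_s_at) and 0 higher under most settings. The count of lower ones was 0 without a variance trend and 0 without moderation (lmFit alone, 1 at unadjusted p below 0.05), and 2, with KLF5, with an upper-quartile filter and with the brightest probe set of each gene at gene level. Leaving out 1 array gave 1 to 2 lower and 0 higher. The KLF4 difference ran from -0.59 (without TET1 siRNA replicate 1) to -0.42 (without TET1 siRNA replicate 2). Of the wider lists, genes higher and lower were 8 and 12. They were 4 and 5 without a variance trend, 0 and 0 without moderation (23 at unadjusted p below 0.05), 4 and 6 without _x_at and _s_at probe sets, and 5 higher with no filter. The setting without _x_at and _s_at probe sets removes genes that have no other probe set, such as CBFA2T3, PPARG, KRT8 and CDKN1A. These genes were not tested again, so part of its lower counts comes from their removal. Leaving out 1 array gave 5 to 9 higher, the 5 without TET1 siRNA replicate 2, and 9 to 11 lower. Such fits leave 1 group with a single array, whose spread is taken from the other group. All probe sets called numbered 4387, against 839 without a variance trend, 1 without moderation (5136 at unadjusted p below 0.05) and 2302 with no filter. Without moderation the test rests on 2 residual degrees of freedom. Beyond that and the removed genes, the cause was not tested for the other settings. No result turned its direction while past the threshold. The replicate numbers of the titles were checked for pairing: same-numbered arrays deviated from their group means with a correlation of 0.0066 over probe sets. No shared deviation was seen over all probe sets. With 1 pair of deviations this cannot tell whether same-numbered arrays were handled together, or whether some genes are paired. With the replicate block 1 member probe set was lower and 0 higher, and 9 list genes were higher and 13 lower. Of all calls, 48.3% were higher, and 55.6% with median centring. Probe sets near background, as for CDX1, CDX2, LGALS4, CDH17 and VIL1, limit what can be measured.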

Other observations

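The probe set of HNF4A-AS1, an antisense RNA at the HNF4A locus, gave 0.2 and 1.1 with TET1 siRNA and 5.8 and 6.3 with control siRNA. The groups do not overlap, and all 4 values are below the filter, so no fold is given.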
